A study of Rattus norvegicus with 6 samples.

Results

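The enzymes described here carry out the urea cycle and the breakdown of amino acids in rat liver. They were taken as a list of 41 genes, each matched to the array through the RefSeq transcript accessions of its probes. Of these 41 genes, 39 had a probe and all 39 were tested, among 29326 features in all. Uroc1, which encodes urocanate hydratase, and Gldc, which encodes glycine decarboxylase, were matched to no probe by this rule. The 39 enzymes were covered by 59 probes, each well above background on all 6 arrays and none saturated.

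Liver RNA came from male Sprague-Dawley rats of the stock Crl:CD(SD), bought at 5 weeks of age and kept on a basal diet. The vehicle group (n = 3 animals) was given corn oil, and the treated group (n = 3 animals) was given TBBC, an industrial antioxidant in which sulfur joins a pair of tert-butyl-m-cresol rings, at 300 mg/kg/day. Each animal was measured on 1 array. The labels differ on the length of dosing, with 28 days in the series text and 9 weeks in the protocol. All vehicle arrays shared 1 slide and scan and all TBBC arrays shared another, so slide or scan and treatment cannot be told apart in any comparison given here.

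Amino acids that are not used for protein are stripped of their nitrogen in the liver, mostly by transaminases and glutamate dehydrogenase, and the remaining carbon is burned or turned into glucose. The nitrogen is released as ammonia or passed to aspartate. In hepatocytes around the portal vein the urea cycle joins both into urea, while a narrow band of hepatocytes around the central vein catches leftover ammonia as glutamine. Many of these enzymes are known to be induced by fasting, glucagon and glucocorticoids, and among them Tat, Tdo2 and Sds are classical examples in rat liver.

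The 75th percentile of the processed signal lay between 465.2 and 638.2 on the 6 arrays, and between 36919 and 39386 probes were well above background. The spread of the spike-in controls was 9.11% on vehicle replicate 2 and 3.01% to 4.11% on the other arrays. All 8 hepatocyte markers were well above background on every array, and 1 of them, Ahsg, which encodes fetuin-A, fell (log2 difference -0.83). The summed level of the 8 markers, as a multiple of the 75th percentile, was 5381 to 6114 on vehicle arrays and 4644 to 4721 on TBBC arrays. None of the other hepatocyte markers passed, and their differences were uneven. Apoa1 was just short of the threshold at -0.9996 (limma, adjusted p = 0.05004). The rest were Serpina1 -0.40, Alb -0.30, Tf -0.29, Cyp2e1 -0.23, Ttr -0.03 and Apob 0.09. The summed level of the 5 cholangiocyte markers with a probe was 1.13 to 1.30 on vehicle arrays and 2.77 to 4.15 on TBBC arrays. Only 1 of the 5, Epcam, passed, and it rose by 1.83 on the log2 scale. Epcam was also the brightest of the 5 in both groups, with mean log2 signals of -0.29 on vehicle and 1.54 on TBBC arrays. The differences of the others were 1.16 for Cftr, 0.44 for Krt19, 0.25 for Spp1 and -0.33 for Krt7. Of the 7 stellate cell markers, 1 rose (Rgs5, by 0.95), with summed levels of 14.8 to 21.8 on vehicle and 13.7 to 18.3 on TBBC arrays. The others did not pass, and most were negative: Des -0.53, Acta2 -0.42, Col1a1 -0.35, Col1a2 -0.24 and Lrat -0.17, with Dcn at 0.55. No marker of macrophages, neutrophils, lymphocytes, sinusoidal endothelium or erythroid cells passed the test. Of 4 pancreatic acinar markers, Cela1, Pnlip and Prss1 were not well above background on any array. The part of these marker shifts in the results for the enzymes was not tested. In bulk tissue, fewer cells of a type and less RNA per cell cannot be told apart.

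Signals are given on a log2 scale relative to the 75th percentile of the array, so 0 is the 75th percentile of that array. A difference is the TBBC mean minus the vehicle mean of these log2 values, with the standard error of limma's fit over all features. "Rose" and "fell" are used where the Benjamini-Hochberg adjusted p over all features was under 0.05. By this rule 902 of 29326 features passed (3.08%), of which 492 were higher (1.68%) and 410 lower (1.40%). The split depended on the scaling: it was 746 higher and 306 lower with median centring, and 574 higher and 130 lower with scaling on the spike-in controls, which moved the median of all features by 0.22. That median was -0.06 in the scaling used here.

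Of the 39 enzymes 1 fell and none rose. The enzyme that fell was Agxt, alanine-glyoxylate aminotransferase. It was 2.48-fold lower in the TBBC group. The share of enzymes called was 2.56%, beside 3.08% of all features. Without the adjustment, 6 enzymes were higher and 5 lower at p under 0.05, which is 28.2% of the enzymes beside 23.0% of all features (9.48% higher and 13.5% lower). By pathway these 11 were 2 of the urea cycle, 2 of the glutamate group, 2 aromatic enzymes, and 1 each in ornithine and proline, sulfur, branched-chain and lysine, glycine and serine, and histidine metabolism. The largest positive difference was that of Aass, the first enzyme of lysine breakdown, at 1.43 ± 0.41 (SE), which did not pass.

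Of the 39 differences 21 were positive (53.8%, beside 42.4% of all features) and 18 negative. Their median was 0.03, beside -0.06 for all features and -0.02 for all named genes. This median was 0.25 with spike-in scaling, beside 0.16 for all features, and it ran from -0.06 without TBBC replicate 2 to 0.16 without vehicle replicate 1. The median absolute difference was 0.30 for the enzymes and 0.23 for all features, and 9 enzymes (23.1%) differed by more than 0.5 in either direction, as did 17.4% of all features. The 3 TBBC arrays lay above all 3 vehicle arrays for 7 enzymes (17.9%, beside 12.3% of all features) and below them for 4 (10.3%, beside 18.8%). For 23 enzymes the unadjusted 95% confidence interval of the difference lay within 2-fold in both directions, and for the other 16 it reached past 2-fold. The same bound held 80.1% of all features.

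**Figure D1:**
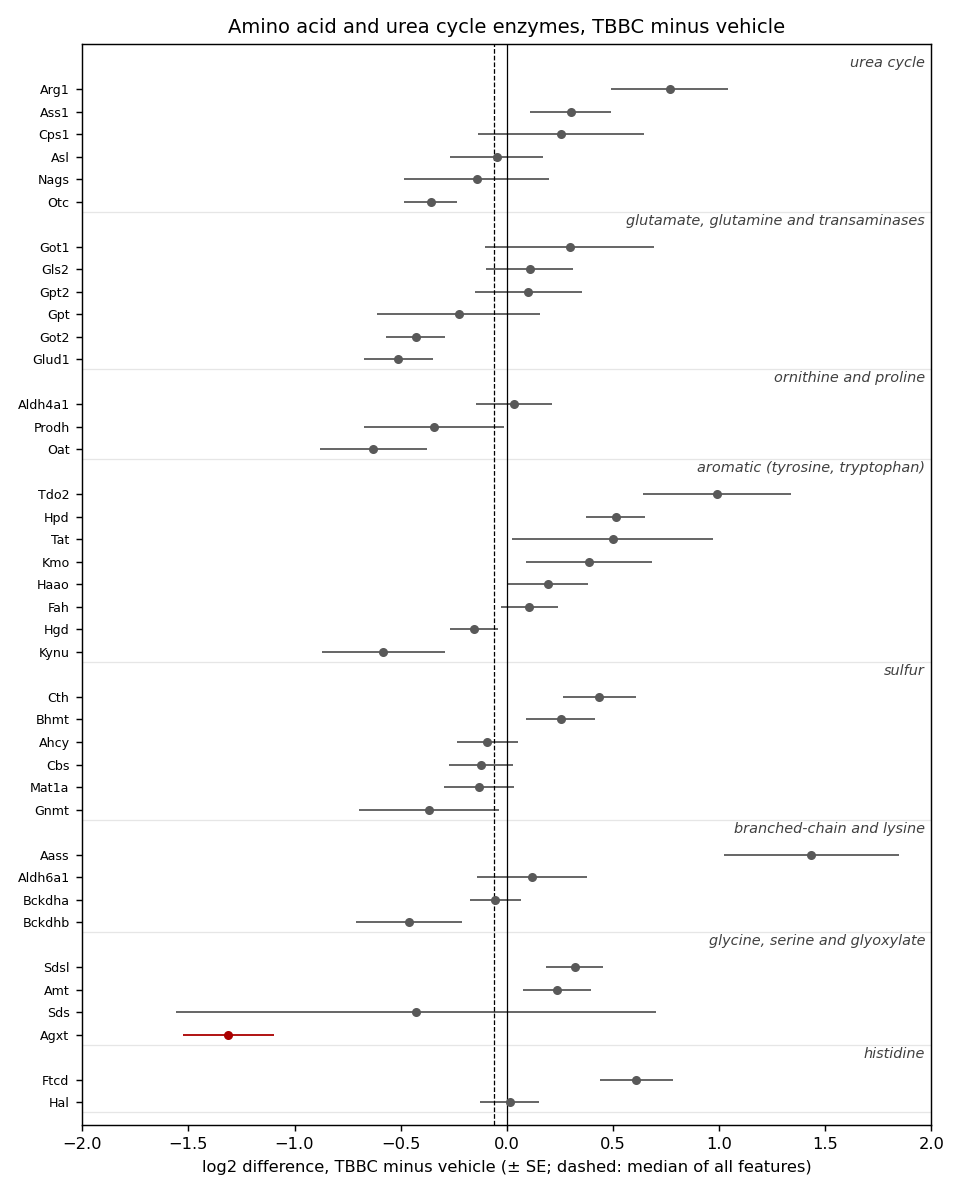
Log2 difference between TBBC and vehicle (x axis, points with SE) for the 39 tested enzymes, grouped by pathway. Agxt at -1.31, in red, is the enzyme past the threshold, and Aass lies farthest to the right at 1.43 with a wide error.

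Agxt transfers the amino group of alanine or serine to a keto acid and is best known for disposing of glyoxylate, the precursor of oxalate. Its log2 signals were 4.34, 3.97 and 4.25 on the vehicle arrays and 2.44, 3.02 and 3.16 on the TBBC arrays. Every TBBC array was below every vehicle array, and the gap between the groups was wider than the range within the vehicle group. The difference was -1.31 ± 0.21 (SE, 95% interval -1.82 to -0.80, n = 3 and 3; limma, adjusted p = 0.0345). A second Agxt probe read 3.34, 3.00 and 3.36 on vehicle arrays and 1.76, 2.45 and 2.43 on TBBC arrays, a difference of -1.02 that did not pass in the fit with every probe on its own (limma, adjusted p = 0.0631). Both probes thus separated the groups in the same direction. The call was near the threshold. Leaving out vehicle replicate 1, 2 or 3 gave adjusted p = 0.117, 0.0784 and 0.0846, and leaving out TBBC replicate 1, 2 or 3 gave 0.0530, 0.0985 and 0.0658 (limma), with differences from -1.45 to -1.10.

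The gene's upstream sequence is shown because Agxt was the enzyme that passed. RefSeq promoter entries of the build GRCr8 list 2 starts for Agxt on the plus strand of chromosome 9, and the 250 bases before each are chr9:101122543-101122792 and chr9:101127008-101127257. Capitals mark letters that match 1 of 7 short motifs searched on both strands. They are printed 5′ to 3′.
Agxt, first start: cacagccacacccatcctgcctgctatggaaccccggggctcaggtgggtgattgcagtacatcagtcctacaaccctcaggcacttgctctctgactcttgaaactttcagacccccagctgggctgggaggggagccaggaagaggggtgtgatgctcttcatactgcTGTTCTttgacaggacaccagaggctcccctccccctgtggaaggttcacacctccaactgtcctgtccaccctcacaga
Agxt, second start: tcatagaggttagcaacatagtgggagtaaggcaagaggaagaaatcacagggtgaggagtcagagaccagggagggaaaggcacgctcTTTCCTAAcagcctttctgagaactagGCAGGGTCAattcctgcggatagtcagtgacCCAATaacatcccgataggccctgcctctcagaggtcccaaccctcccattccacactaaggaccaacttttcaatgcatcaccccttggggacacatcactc
Before the first start the only match was TGTTCT, the core of a glucocorticoid receptor site, from 80 to 75 bases upstream. Before the second start the matches were a C/EBP-type site (TTNNGNAA, minus strand, 161 to 154 bases upstream), an antioxidant response element core (TGACNNNGC, minus strand, 134 to 126 bases upstream) and a CCAAT box (103 to 99 bases upstream). Such matches are common: TGTTCT was in 17.5%, TTNNGNAA in 37.2%, TGACNNNGC in 10.1% and CCAAT in 34.0% of the 33469 RefSeq promoters. A match describes letters in this window, and no binding was measured.

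Promoters were listed for 34 of the 41 enzymes, 36 sequences in all. CCAAT was found in 19 of the 36 (52.8%), TTNNGNAA in 10 (27.8%), TGTTCT in 5 (13.9%) and TGACNNNGC in 5 (13.9%). TGATGNAA, the core of the amino acid response element, was in 2 of the 36 (5.56%), those of Got1 and Tat, beside 3.40% of all promoters. The short cAMP response element TGACG was in 3 (8.33%, beside 18.2%), those of Aass, Gls2 and Mat1a. The full element TGACGTCA, which contains it, was in 0 of 36, beside 1.59%.

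None of the 6 urea cycle enzymes passed the test. Their median difference was 0.10, with 3 positive and 3 negative values that ran from -0.36 to 0.77. The median had no stable sign: it was -0.09 without vehicle replicate 2, 0.30 without vehicle replicate 1 and 0.33 with spike-in scaling. The mitochondrial steps come first. Nags makes N-acetylglutamate, the activator of Cps1, and its log2 signals were 3.59, 2.39 and 2.82 on vehicle arrays and 2.57, 3.26 and 2.54 on TBBC arrays. Cps1, which fixes ammonia as carbamoyl phosphate, read 3.50, 2.25 and 3.30 on vehicle arrays and 2.69, 3.69 and 3.43 on TBBC arrays. The groups overlapped for both genes, with differences of -0.14 ± 0.34 for Nags and 0.26 ± 0.39 for Cps1. Both were lowest in the vehicle group on replicate 2, and without single arrays their differences ran from -0.41 to 0.18 and from -0.13 to 0.54.

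Otc joins carbamoyl phosphate to ornithine. It read 4.96, 4.90 and 4.68 on vehicle arrays and 4.53, 4.55 and 4.38 on TBBC arrays. All 3 TBBC arrays were below all 3 vehicle arrays, but the difference, -0.36 ± 0.12, did not pass (limma, adjusted p = 0.159). The remaining enzymes act in the cytosol. Ass1, which couples citrulline with aspartate, read 6.72, 6.24 and 6.49 on vehicle arrays and 6.49, 7.05 and 6.81 on TBBC arrays, a difference of 0.30 ± 0.19 with overlapping groups. Asl, which splits argininosuccinate, read 6.24, 6.49 and 6.77 on vehicle and 6.12, 6.42 and 6.82 on TBBC arrays. Its difference of -0.05 ± 0.22 was within the spread, and it was 0.17 with spike-in scaling.

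Arg1, arginase 1, releases urea and regenerates ornithine. Its log2 signals were 7.75, 7.43 and 7.87 on vehicle arrays and 8.03, 9.05 and 8.28 on TBBC arrays. The TBBC arrays were all higher, most of all TBBC replicate 2. The difference of 0.77 ± 0.28 (1.70-fold) did not pass (limma, adjusted p = 0.173), and it was 0.47 without TBBC replicate 2.

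**Figure D2:**
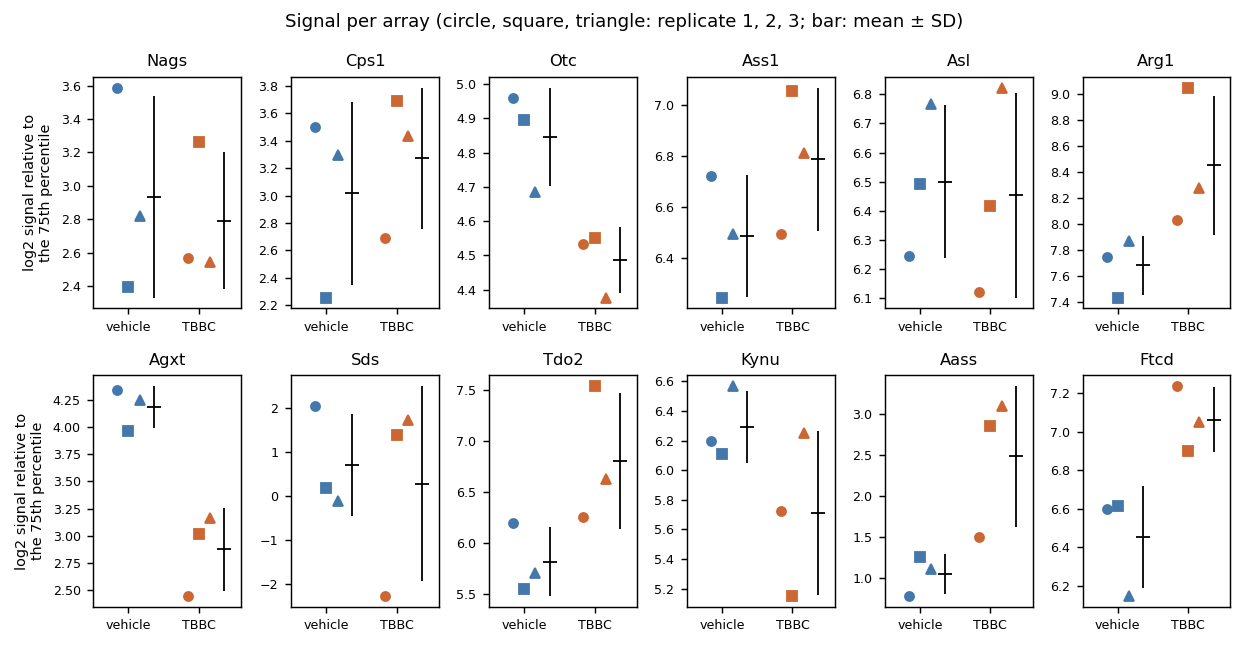
Log2 signal relative to the 75th percentile on each array for the 6 urea cycle enzymes, Agxt, Sds, Tdo2, Kynu, Aass and Ftcd, with the mean and SD of each group beside the points; each panel has its own y axis. The groups are apart for Agxt, Otc, Arg1, Tdo2, Aass and Ftcd and overlap in the other panels, and the 3 TBBC arrays of Sds span 16.1-fold.

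Glutamate dehydrogenase and the aspartate aminotransferases feed nitrogen to the cycle, and none of the 6 genes in this group passed. Their median of -0.06 was -0.31 without TBBC replicate 2, 0.15 without TBBC replicate 3 and 0.16 with spike-in scaling. Glud1, glutamate dehydrogenase, read 6.67, 6.58 and 6.98 on vehicle arrays and 6.07, 6.46 and 6.17 on TBBC arrays. Got2, the mitochondrial aspartate aminotransferase, read 4.81, 4.72 and 4.49 on vehicle arrays and 4.24, 4.40 and 4.09 on TBBC arrays. For both genes every TBBC array was below every vehicle array, with differences of -0.51 ± 0.16 (limma, adjusted p = 0.138) and -0.43 ± 0.14 (limma, adjusted p = 0.145). On the other Glud1 probes, with differences of -0.11 and -0.18, the groups overlapped. The cytosolic Got1 and the alanine aminotransferases Gpt and Gpt2 had differences of 0.30, -0.23 and 0.10, and liver glutaminase, Gls2, one of 0.11. Groups overlapped for these 4 genes, and without 1 array Got1 ran from 0.0087 to 0.77.

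Ornithine and proline enter the glutamate pool through Oat, Prodh and Aldh4a1, none of which passed. Their median of -0.34 was -0.67 without TBBC replicate 2, -0.08 without TBBC replicate 1 and -0.12 with spike-in scaling. Oat, ornithine aminotransferase, read 4.51, 4.86 and 4.08 on vehicle arrays and 3.53, 4.20 and 3.83 on TBBC arrays, a difference of -0.63 ± 0.25 (limma, adjusted p = 0.204). A single pair of arrays made these groups overlap, TBBC replicate 2 being above vehicle replicate 3. Prodh, proline dehydrogenase, read 6.57, 6.03 and 5.83 on vehicle and 5.27, 6.44 and 5.69 on TBBC arrays, a difference of -0.34 ± 0.33, which is also the median just given and moved with it. Its TBBC values enclosed all but 1 of the vehicle values. Aldh4a1, the next enzyme of proline breakdown, had a difference of 0.03 ± 0.18.

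The 8 enzymes of tyrosine and tryptophan breakdown had a median of 0.29, with 6 positive differences, and none passed. That median was 0.05 without TBBC replicate 2, 0.42 without vehicle replicate 1 and 0.51 with spike-in scaling. Tdo2, tryptophan dioxygenase, opens the indole ring in the first step toward kynurenine. It read 6.20, 5.55 and 5.71 on vehicle arrays and 6.25, 7.54 and 6.63 on TBBC arrays. The groups were apart by the small gap between vehicle replicate 1 and TBBC replicate 1. The difference was 0.99 ± 0.35 (1.99-fold; limma, adjusted p = 0.166), and 0.62 without TBBC replicate 2.

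Kynu, kynureninase, acts further down the same route. It read 6.20, 6.11 and 6.57 on vehicle arrays and 5.73, 5.15 and 6.25 on TBBC arrays, a difference of -0.58 ± 0.29 (limma, adjusted p = 0.279) with overlapping groups. It was -0.30 without TBBC replicate 2. The other kynurenine pathway enzymes, Kmo and Haao, had differences of 0.39 and 0.19, which without 1 array ran from 0.10 to 0.64 and from -0.0081 to 0.32. For tyrosine, Hpd, which makes homogentisate, was higher on every TBBC array by 0.51 ± 0.14 (limma, adjusted p = 0.105); it passed with normexp background correction (limma, adjusted p = 0.0467). Tat, tyrosine aminotransferase, had a difference of 0.50 ± 0.47 that was 0.05 without TBBC replicate 2. Hgd and Fah, which finish tyrosine breakdown, had differences of -0.15 and 0.10.

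The sulfur enzymes turn methionine into S-adenosylmethionine, homocysteine and cysteine, and none of the 6 passed. Their median of -0.11 was 0.11 with spike-in scaling, 0.12 with the mean of each gene's probes and 0.20 with every probe on its own, and it ran from -0.20 to 0.0026 without TBBC replicate 2 or 1. Cth, cystathionine gamma-lyase, makes cysteine. It read 4.64, 4.61 and 4.26 on vehicle arrays and 4.94, 4.70 and 5.17 on TBBC arrays, so that every TBBC array was higher, by 0.43 ± 0.17 (limma, adjusted p = 0.201). Gnmt, which spends surplus S-adenosylmethionine, read 7.16, 7.68 and 6.56 on vehicle and 6.28, 6.96 and 7.06 on TBBC arrays, a difference of -0.37 ± 0.33 with overlapping groups. It was -0.65 without vehicle replicate 3 and -0.09 without vehicle replicate 2. Bhmt, which remethylates homocysteine, had a difference of 0.25 that was 0.13 without TBBC replicate 2 and 0.41 without TBBC replicate 1. Mat1a, Ahcy and Cbs lay between -0.13 and -0.09, and all 3 were positive with spike-in scaling, between 0.09 and 0.13.

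Among the enzymes of branched-chain amino acids and lysine (4 genes, none passed), Aass had the largest difference. The median of the 4 was 0.03, and it was -0.12 without vehicle replicate 3, 0.16 without vehicle replicate 2 and 0.25 with spike-in scaling. Aass is the bifunctional enzyme that joins lysine to 2-oxoglutarate and splits the product. Its log2 signals were 0.78, 1.25 and 1.11 on vehicle arrays and 1.50, 2.85 and 3.09 on TBBC arrays. Every TBBC array was higher, with replicate 1 close to the vehicle group and replicates 2 and 3 far above it. The difference was 1.43 ± 0.41 (2.70-fold; limma, adjusted p = 0.116). Without TBBC replicate 1 it was 1.93 and passed (limma, adjusted p = 0.0235), and without any other single array it did not.

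Bckdha and Bckdhb encode the subunits of the decarboxylase that commits branched-chain keto acids to breakdown. Bckdhb read 3.83, 3.66 and 3.87 on vehicle arrays and 3.90, 3.06 and 3.01 on TBBC arrays, a difference of -0.46 ± 0.25 (limma, adjusted p = 0.314) that was -0.75 without TBBC replicate 1 and -0.30 without TBBC replicate 3. TBBC replicate 1 was the highest of the 6 arrays and the other TBBC arrays were the lowest. Bckdha and Aldh6a1, the latter a late enzyme of valine breakdown, had differences of -0.05 and 0.12.

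Besides Agxt, the glycine and serine enzymes include the serine dehydratase Sds, its relative Sdsl, and Amt, a subunit of the glycine cleavage system. Sds had the widest spread of the 39 enzymes. It read 2.04, 0.19 and -0.11 on vehicle arrays and -2.28, 1.40 and 1.72 on TBBC arrays. The TBBC arrays included both the lowest value, on replicate 1, and values above most of the vehicle group. The difference was -0.43 ± 1.13, and it was 0.85 without TBBC replicate 1 and 0.24 without vehicle replicate 1. A second Sds probe ran from 0.28 to 0.59 on vehicle and from -0.04 to 0.98 on TBBC arrays. It had the same lowest TBBC array and a much narrower range. Sdsl and Amt had differences of 0.32 ± 0.13 and 0.24 ± 0.16.

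Histidine breakdown was covered by Hal and Ftcd. Ftcd handles the last step, in which the formimino group is passed to folate. It read 6.60, 6.62 and 6.15 on vehicle and 7.24, 6.90 and 7.05 on TBBC arrays, every TBBC array being higher. The difference of 0.61 ± 0.17 (1.53-fold) did not pass (limma, adjusted p = 0.112). With spike-in scaling it was 0.83 and passed narrowly (limma, adjusted p = 0.0498). Hal, histidine ammonia-lyase, read 6.42, 6.42 and 6.35 on vehicle and 6.17, 6.45 and 6.62 on TBBC arrays. Its difference was 0.01 ± 0.14 (95% interval -0.32 to 0.35, unadjusted), well within 2-fold in either direction.

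More than 1 probe was retained for 15 of the enzymes, which allows their probes to be set side by side. When every probe was fitted on its own, 1 of the 59 enzyme probes passed, lower in TBBC, as did 1.43% of the 37222 probes in that direction. The probes of 1 enzyme had differences of opposite sign for 4 genes: Asl (-0.05 and 0.20), Cbs (-0.12 and 0.14), Mat1a (from -0.13 to 0.46) and Sds (-0.43 and 0.11). For the other 11 genes all probes pointed one way. Prodh had 4 probes between -0.41 and -0.14, Glud1 had 3 between -0.51 and -0.11, and the 2 probes of Kynu gave -0.59 and -0.58. Oat gave -0.63 and -0.41, and Bhmt gave 0.25 and 0.64.

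**Figure D3:**
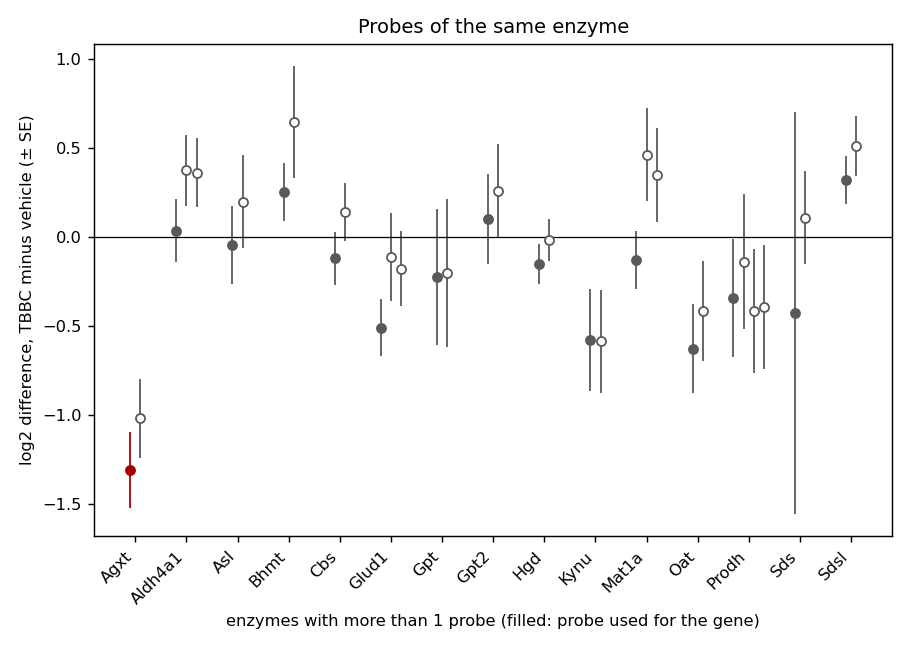
Log2 difference between TBBC and vehicle (y axis, points with SE) for each probe of the 15 enzymes with more than 1 probe; filled points are the probes that stand for the gene. Both Agxt probes are near -1, at -1.31 and -1.02, and the Sds probe in use has by far the longest error bar.

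For most of the enzymes the spread between animals of a group was above that of the median feature. The median within-group SD was 0.284 for the enzymes and 0.197 for all features, and 29 of the 39 enzymes (74.4%) were above the median of all features. The enzymes also tended to be high or low on the same arrays. TBBC replicate 2 was the highest of its group for 29 of 39 enzymes, beside 38.5% of all features, with a median deviation from the group mean of 0.23 (all features 0.02). TBBC replicate 1 was the lowest of its group for 24 enzymes, beside 35.4% of all features, with a median deviation of -0.16.

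In the vehicle group, replicate 1 was the highest for 26 enzymes (29.5% of all features; median deviation 0.13) and replicate 3 the lowest for 21 (40.9%; -0.09). The deviation of TBBC replicate 2 was 0.20 after quantile normalization and 0.23 with normexp background correction. The median difference of the 39 enzymes was 0.03 with all arrays and -0.06 without TBBC replicate 2. Tdo2, Tat and Arg1 were each highest on that array, at 7.54, 3.22 and 9.05, while Kynu was lowest there, at 5.15. These groupings of arrays are a description of the same 6 animals and were given no test.

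**Figure D4:**
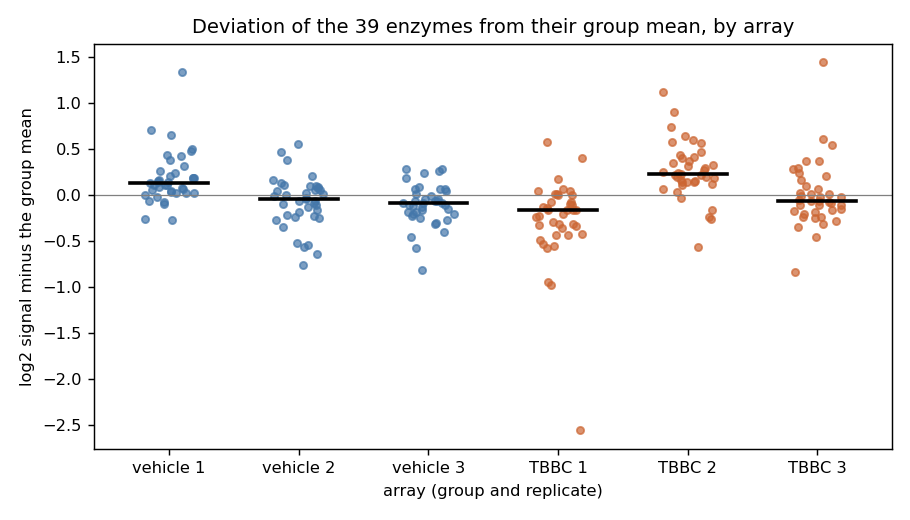
Log2 signal of each of the 39 enzymes minus its group mean (y axis) on each of the 6 arrays (x axis); black bars are medians. Most points of vehicle replicate 1 and TBBC replicate 2 lie above 0 (medians 0.13 and 0.23), and most of TBBC replicate 1 lie below (median -0.16).

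The other genes of these pathways, such as their transporters, cofactor enzymes, neighbouring steps and regulators, were read from 9 lists of 94 genes. Of the 84 that were tested, 1 rose and 3 fell, and 80 did not pass. That is 4.76% called, beside 3.08% of all features. Their median difference was -0.07. Ido2, Auh, Acad8, Mmut, Shmt1, Aldh5a1 and Slc25a13 were matched to no probe, and Bcat1, Arg2 and Slc25a2 had no probe well above background on all arrays of a group.

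Glul, glutamine synthetase, marks the hepatocytes around the central vein that capture ammonia as glutamine. It read 3.01, 2.95 and 2.87 on vehicle arrays and 2.20, 1.89 and 2.27 on TBBC arrays. The groups were apart, and Glul fell by 0.82 on the log2 scale (SE 0.14, 1.77-fold; limma, adjusted p = 0.0361). Its second probe gave -0.79. The call was lost without any 1 array (limma, adjusted p from 0.0777 to 0.121), with differences from -0.90 to -0.71. In the same list of 7 tested genes the water and urea channel gene Aqp9 had a difference of -0.69 ± 0.15 and the ammonium channel gene Rhbg one of 1.05 ± 0.33, neither past the threshold (limma, adjusted p = 0.0675 and 0.135). These and other genes below that did not pass were, unless said otherwise, singled out after their values were seen.

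Cdo1, cysteine dioxygenase, sends cysteine toward taurine and sulfate. Its signals were tight within groups, at 3.78, 3.83 and 3.76 on vehicle arrays and 2.82, 2.93 and 2.82 on TBBC arrays. Cdo1 fell by 0.93 on the log2 scale (SE 0.10, 1.90-fold; limma, adjusted p = 0.0129). The call was kept in 3 of the 6 fits without 1 array and missed without vehicle replicate 1 and without TBBC replicate 2 or 3 (limma, adjusted p = 0.0643, 0.0539 and 0.0553). The other 14 sulfur genes did not pass. Of the 15, 2 were higher on every TBBC array (13.3%, beside 12.3% of all features) and 2, Cdo1 among them, lower on every one (13.3%, beside 18.8%). The higher ones were Bhmt2 and Dmgdh, with differences of 0.62 and 0.39, and the other lower one was Mtr, methionine synthase, with -0.39.

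Hibch, which releases 3-hydroxyisobutyrate in valine breakdown, read 0.63, 0.61 and 0.89 on vehicle arrays and 1.64, 2.11 and 1.86 on TBBC arrays. It rose by 1.16 on the log2 scale (SE 0.16, 2.24-fold; limma, adjusted p = 0.0239), and its 3 probes gave 1.16 to 1.26. Without 1 array the difference ran from 1.04 to 1.28, and the call was kept without TBBC replicate 1 only (limma, adjusted p from 0.0375 to 0.0936). The other 14 branched-chain genes tested did not pass. Bckdk, the kinase that switches off the branched-chain decarboxylase, read 1.09, 1.08 and 1.25 on vehicle and 0.53, 0.68 and 0.63 on TBBC arrays, a difference of -0.53 ± 0.11 just short of the threshold (limma, adjusted p = 0.0607).

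Aldh18a1, which makes the precursor of proline and ornithine from glutamate and so runs against their breakdown, read -2.03, -2.20 and -1.79 on vehicle arrays and -3.00, -3.07 and -3.09 on TBBC arrays. It fell by 1.05 on the log2 scale (SE 0.13, 2.07-fold; limma, adjusted p = 0.0209). A second probe gave -2.79, so the size of the difference depended on the probe. The call was kept without vehicle replicate 2 or 3 and missed in the other 4 fits without 1 array (limma, adjusted p from 0.0553 to 0.0813). The other 5 genes tested in that list did not pass.

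In the remaining lists no gene passed limma's adjusted test. At an unadjusted p under 0.05 they held 2 of 10 glycine and glyoxylate genes, 3 of 10 aromatic genes, 1 of 6 lysine genes, 0 of 3 histidine genes and 1 of 12 regulators, which is 20.0%, 30.0%, 16.7%, 0% and 8.33% beside 23.0% of all features. The neighbours of Agxt in glyoxylate metabolism are among them, with 10 genes tested and a median of -0.08. Grhpr, which reduces glyoxylate, and Glyctk, glycerate kinase, which the naming rule picked for their signal, differed by 0.04 ± 0.13 and 0.07 ± 0.12. Hao1, glycolate oxidase, which makes glyoxylate in peroxisomes, read 3.42, 3.44 and 3.21 on vehicle and 2.83, 2.68 and 2.03 on TBBC arrays. The arrays did not overlap, but the difference of -0.84 ± 0.22 did not pass (limma, adjusted p = 0.0986). Agxt2, the mitochondrial relative of Agxt, differed by 0.55 ± 0.29 with overlapping groups.

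Of the 10 other aromatic genes tested, Pcbd1, which recycles the cofactor of phenylalanine hydroxylase, and Gstz1, the isomerase between Hgd and Fah, were named by signal and differed by 0.01 ± 0.13 and -0.45 ± 0.14. Of 6 lysine genes, Gcdh and Aldh7a1, which act below Aass, differed by -0.15 ± 0.11 and 0.03 ± 0.16. Dhtkd1, a dehydrogenase subunit of the same route, differed by 0.54 ± 0.12 (limma, adjusted p = 0.0653). Of 3 histidine genes, Hdc, which makes histamine, and Amdhd1, the step between urocanate and Ftcd, differed by 0.78 ± 0.57 and 0.67 ± 0.37. All 3 histidine differences were positive, as were 42.4% of those of all features, with that of Carnmt1 at 0.03 ± 0.13.

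The 12 regulators of amino acid breakdown had a median of -0.18, beside -0.06 for all features, and none passed the threshold. Of their differences 9 were negative and 3 positive (25.0%, beside 42.4% of all features). The sign of Hnf4a, negative in this count, depended on the probe, with differences of -0.41, -0.28, 0.30 and 0.40. For the other regulators with several probes, all probes were negative. Gcgr, the glucagon receptor, and Cebpb, a factor induced in fasting, were named by signal and differed by 0.08 ± 0.20 and -0.08 ± 0.25. Nr3c1, the glucocorticoid receptor, differed by -0.24 ± 0.15, and Klf15, a factor that drives amino acid breakdown in fasting, by -0.18 ± 0.20. Ppara, the fatty acid receptor, had the most negative difference of the list, -0.68 ± 0.30 (limma, adjusted p = 0.239).

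**Figure D5:**
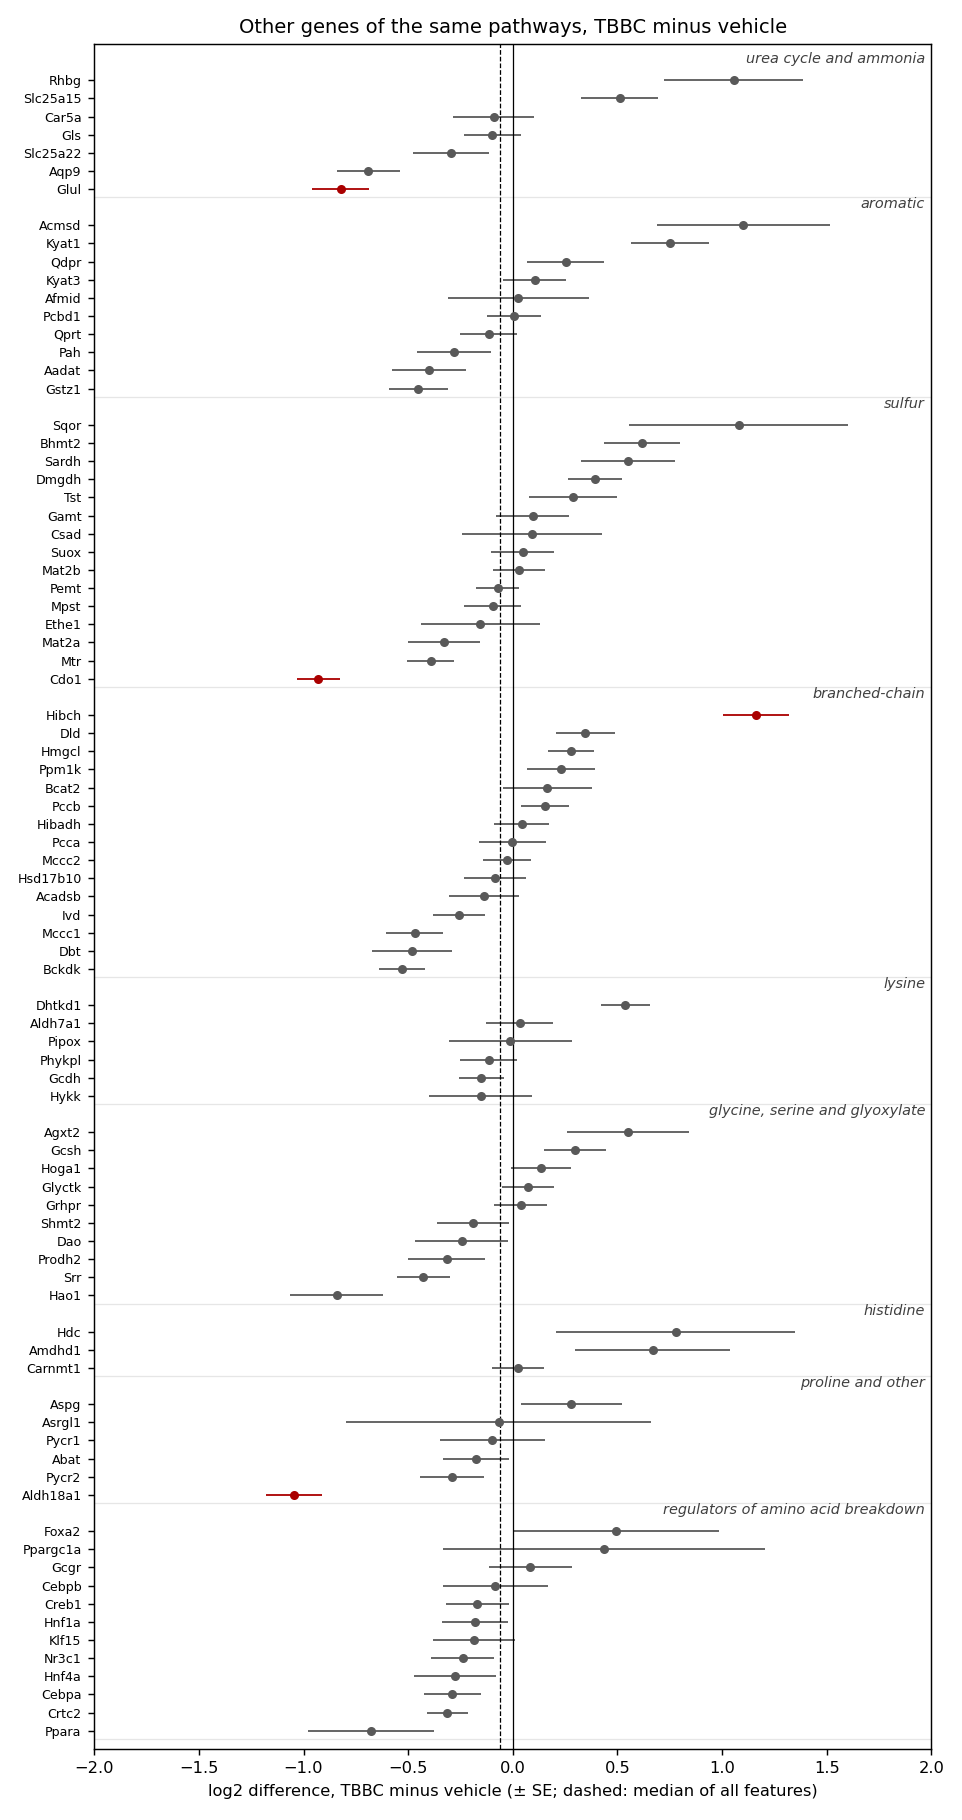
Log2 difference between TBBC and vehicle (x axis, points with SE) for the 84 other genes of the pathways, by list; red points passed the threshold. Hibch is the red point to the right at 1.16, and Aldh18a1, Cdo1 and Glul are the red points to the left between -1.05 and -0.82.

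Of the other genes that passed, Glul, Hibch, Cdo1 and Aldh18a1, the upstream sequences of Glul and Hibch are shown for comparison with Agxt, from the same RefSeq entries of GRCr8 and with the same motifs in capitals. Glul has 2 starts on the plus strand of chromosome 13, with windows chr13:68519250-68519499 and chr13:68575816-68576065, and Hibch has 1 on the minus strand of chromosome 9, chr9:56161797-56162046. The sequences run 5′ to 3′.
Glul, first start: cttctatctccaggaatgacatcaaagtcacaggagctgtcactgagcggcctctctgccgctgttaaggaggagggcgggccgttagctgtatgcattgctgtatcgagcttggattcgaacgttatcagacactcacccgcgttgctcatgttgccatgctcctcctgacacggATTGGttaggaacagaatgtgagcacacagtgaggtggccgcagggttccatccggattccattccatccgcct
Glul, second start: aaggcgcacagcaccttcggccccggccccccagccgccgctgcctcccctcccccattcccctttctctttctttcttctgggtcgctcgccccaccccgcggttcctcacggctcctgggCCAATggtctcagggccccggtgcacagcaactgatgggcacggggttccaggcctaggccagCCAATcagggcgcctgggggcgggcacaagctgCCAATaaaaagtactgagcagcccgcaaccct
Hibch: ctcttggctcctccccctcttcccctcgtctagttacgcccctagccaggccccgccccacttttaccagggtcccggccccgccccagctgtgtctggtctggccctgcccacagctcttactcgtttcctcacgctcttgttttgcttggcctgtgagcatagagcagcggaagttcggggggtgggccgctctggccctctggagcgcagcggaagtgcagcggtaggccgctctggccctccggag
CCAAT boxes were the only matches in Glul, with 1 on the minus strand before the first start (74 to 70 bases upstream) and 3 on the plus strand before the second (128 to 124, 65 to 61 and 32 to 28 bases upstream). None of the 7 motifs was found in the Hibch window.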

How the data were processed

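Liver RNA of 6 rats, 3 vehicle and 3 TBBC, was measured on Agilent arrays labelled with Cy3. The deposited files hold spot intensity on a linear scale, which the authors extracted with Feature Extraction 10.7.1.1, per the file headers (10.7 per the submitters' processing notes), with background subtracted. The same software wrote the flags for background, saturation and outliers, per the file headers. The deposited value table holds the same intensity scaled to each array's 75th percentile; its column medians were 0.1013, 0.1077, 0.1033, 0.0977, 0.0972 and 0.0974, it is linear and uncentred, and it was used as an alternative.

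Control spots and 25 probes with an outlier flag were left out, and a probe was retained (37222) where every array of either group had it well above background. The processed intensity was divided by its 75th percentile on that array and put on the log2 scale. Probes were named by unversioned RefSeq accession through a GRCr8 gene table, which gave 28206 of 61537 probes a symbol. The array design names another build, so the only coordinates given are those of the upstream windows, from RefSeq entries of GRCr8. The brightest probe on average stood for a gene. The comparison used limma 3.58.1 under R 4.3.3 (lmFit, eBayes, two-sided, Benjamini-Hochberg over all features), after a test on simulated data. The number of arrays limits the precision. A p-value here sets the group difference against the spread between arrays of a group, moderated over all features by eBayes. That spread holds variation between animals and between arrays of a slide. It does not hold variation between slides or scans.

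The enzymes, the lists and the settings were chosen with earlier results of these data known. Values on every array are given for enzymes past the threshold, for the urea cycle, and for the 2 enzymes with the largest absolute difference in each other pathway; of the other lists, the genes past the threshold are named, or the 2 with the highest signal where none passed. Alternatives were other scalings (quantile, median, spike-in probes above background on all arrays), normexp correction (on median spot signals with offset 50, as the files hold no mean signals), other filters and probe rules, the deposited table, eBayes with trend and robust, treat at 0.5, the replicate number as a block, and leaving out each array.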

Additional observations from a re-analysis of the deposited data

How the results depend on the processing

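The number of features past the threshold, 902, was 1589 with normexp correction, 194 with no filter on dim probes, 131 with treat at 0.5, and 104 to 364 when 1 array was left out. The number of enzymes, 1, was 2 with normexp correction (Agxt and Hpd), 0 with no filter, 0 with treat, and 0 to 1 without 1 array. With spike-in scaling it was again 1, but that enzyme was Ftcd and not Agxt. Of the 59 enzyme probes 1 passed, against 3 with normexp, 2 with eBayes trend and robust, 0 with no filter, 0 with treat and 0 to 1 without 1 array. Of the 84 other genes 4 passed, against 9 with normexp, 7 with trend and robust, 1 with no filter (Cdo1), 1 with spike-in scaling (Hibch), 0 with treat and 0 to 3 without 1 array. The enzymes' median difference of 0.03 was 0.25 with spike-in scaling. The causes were not tested.

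Agxt kept its direction in 17 alternatives, from -1.45 to -1.09, and lost its call in 10 (limma, adjusted p from 0.0160 to 0.289 over all of them). With the replicate number as a block, 211 features, 0 enzymes, 0 enzyme probes and 0 of the other genes passed, and Agxt had adjusted p = 0.0884 (limma). Deviations of same-numbered arrays correlated at 0.00351, -0.0216 and 0.144. Such correlations cannot tell whether the replicate numbers pair the animals by design.

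Of the 39 enzymes 23 kept their sign in every alternative. The sign turned in 16, never past the threshold. Median centring gave 0.049 for Asl, 0.0037 for Ahcy and 0.043 for Bckdha. Spike-in scaling gave 0.079 for Nags, 0.17 for Asl, 0.068 for Hgd, 0.091 for Mat1a, 0.13 for Ahcy, 0.099 for Cbs and 0.17 for Bckdha. The mean of a gene's probes gave 0.076 for Asl, 0.23 for Mat1a and 0.0098 for Cbs. Without 1 array the differences ran from -0.41 to 0.18 for Nags, -0.13 to 0.54 for Cps1, -0.23 to 0.12 for Asl, -0.056 to 0.27 for Gls2, -0.44 to 0.19 for Gpt, -0.18 to 0.28 for Gpt2, -0.10 to 0.15 for Aldh4a1, -0.0081 to 0.32 for Haao, -0.24 to 0.026 for Mat1a, -0.12 to 0.0095 for Bckdha, -0.11 to 0.35 for Aldh6a1, -1.15 to 0.85 for Sds and -0.090 to 0.13 for Hal. They also moved by over 1.5 times, with no change of sign, for Ass1 (0.17 to 0.45), Fah (0.0020 to 0.16), Amt (0.082 to 0.34), Ahcy (-0.19 to -0.00038) and Cbs (-0.23 to -0.019), besides those given with the results.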
